A study of Mus musculus with 8 samples.

Results

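Ulbp1, Pstpip2, Lhcgr, Myo15, Tmem266 and Il18r1 are 6 genes of mostly low level, chosen by their counts: each was counted at a lower level in Tet1 knockout (KO) than in wild-type (WT) skeletal cells of the same libraries. They were found as 6 rows of the 55471 gene rows of the deposited count table, by gene name. All 6 passed the filter on low counts, which left 22153 genes for testing. They were thus selected on the KO and WT counts of these libraries, so every KO to WT difference of theirs below is a description with no test.

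The study sequenced bulk RNA from the femurs of newborn mice aged 3 to 5 days. It asked how TET1 acts in the stem cells that form cartilage. The cells were of 2 populations: skeletal stem cells (SSC) and the bone cartilage stromal progenitors (BCSP) that descend from them, each sorted by flow cytometry. The 4 groups were KO SSC, KO BCSP, WT SSC and WT BCSP, with 2 libraries each, which the titles number as rounds. Every library, WT included, carries the strain label B6;129S4-Tet1tm1.1Jae/J. This is a germline Tet1 allele on a mixed strain background, so the KO is not limited to skeletal cells. Whether libraries of a group, or SSC and BCSP of a round, came from separate animals or pools is not in the labels. The p-values below therefore measure only the spread between these samples, which may be technical. Nor do the labels give the sex of the pups.

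TET1 is a dioxygenase that oxidises 5-methylcytosine, mostly at CpG sites, and can thereby lead to loss of DNA methylation. It also sits in repressor complexes on DNA. The 6 genes belong to different systems and share no pathway. Ulbp1 encodes a stress-induced cell-surface ligand of NKG2D, the activating receptor of natural killer cells. Il18r1 encodes the ligand-binding chain of the interleukin-18 receptor, which pairs with the chain encoded by Il18rap. Lhcgr encodes the receptor for luteinising hormone, known from the gonads, where it drives steroid synthesis through the G protein alpha subunit encoded by Gnas. Pstpip2 encodes an F-BAR adaptor of myeloid cells that bends membranes and binds PEST-type phosphatases and the kinase CSK. Mice that lack it develop sterile bone inflammation. Myo15 encodes an unconventional myosin that carries whirlin (Whrn) to the tips of stereocilia in hair cells of the inner ear. Tmem266 encodes a membrane protein with a voltage-sensor domain, described in cerebellar neurons.

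The 6 genes lie on 6 chromosomes in the mouse build mm10, by GENCODE release M21. Ulbp1 is at chr10:7440362-7473638 on the minus strand, and Tet1 lies 55.3 Mb away on the same chromosome. Il18r1 is at chr1:40465552-40500854 (plus) and Lhcgr at chr17:88716481-88791990 (minus). Myo15 is at chr11:60469339-60528369 (plus) and Tmem266 at chr9:55326913-55438345 (plus). All 6 are protein-coding, and counts were summed over the whole gene, so exons cannot be set apart. Because CpG sites are where TET1 works, the stretch just before the start of transcription is shown for the 4 genes that RefSeq's promoter table (GRCm38.p6, the assembly of mm10) holds by symbol. No window was used for Pstpip2 and Tmem266. Each line reads 5′ to 3′ on the gene's strand, CpG dinucleotides are in capitals, and only bases upstream of both the RefSeq and the GENCODE start are given. They are chr10:7473639-7473727 (minus), chr1:40465302-40465551 (plus), chr17:88792015-88792264 (minus) and chr11:60469089-60469338 (plus). The Il18r1 stretch covers the end of another gene, Il1rl1, at chr1:40465415.
Ulbp1: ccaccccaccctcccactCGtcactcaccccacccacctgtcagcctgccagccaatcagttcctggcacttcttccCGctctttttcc
Il18r1: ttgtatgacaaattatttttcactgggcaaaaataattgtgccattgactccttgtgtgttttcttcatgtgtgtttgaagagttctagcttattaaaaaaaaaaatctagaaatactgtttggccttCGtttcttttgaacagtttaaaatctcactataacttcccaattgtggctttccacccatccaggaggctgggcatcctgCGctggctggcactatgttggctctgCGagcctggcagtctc
Lhcgr: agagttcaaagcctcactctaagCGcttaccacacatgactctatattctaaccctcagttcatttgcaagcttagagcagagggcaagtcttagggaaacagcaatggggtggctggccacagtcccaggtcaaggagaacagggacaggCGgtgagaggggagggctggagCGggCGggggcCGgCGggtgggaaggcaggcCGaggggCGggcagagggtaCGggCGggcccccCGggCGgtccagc
Myo15: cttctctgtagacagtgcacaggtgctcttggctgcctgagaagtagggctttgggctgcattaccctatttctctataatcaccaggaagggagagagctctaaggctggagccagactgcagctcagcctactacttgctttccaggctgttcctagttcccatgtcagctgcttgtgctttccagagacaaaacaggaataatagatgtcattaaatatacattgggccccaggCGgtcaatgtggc

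In the whole window of 300 bases (250 before the start and 50 after it), the letters CG, which read the same on both strands, occurred 9 times for Ulbp1. The first of 3 RefSeq windows of Il18r1 held 5 CpG, and its later windows held 7 and 8. The window of Lhcgr held 14 and that of Myo15 held 1. Across all 32851 windows of this length the median was 7 CpG, with quartiles of 3 and 20. The share of windows with as many CpG or more was 45.8% for Ulbp1, 62.0% for the first window of Il18r1, 36.3% for Lhcgr and 94.6% for Myo15. For the later windows of Il18r1 it was 52.1% and 48.6%. With the first window of Il18r1, the 4 windows thus ran from nearly free of CpG to somewhat above the median. None held as many as the upper quartile. DNA methylation was not measured in these libraries.

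Each library held between 104782544 and 168004119 counts, so 1 CPM (1 count per 1000000 counts) stood for more than 100 counts. Tet1, the targeted gene (chr10:62804570-62908996), had 7.67 and 12.1 CPM in KO SSC, against 15.6 and 20.1 CPM in WT SSC. In BCSP it had 10.2 and 12.6 CPM in the KO libraries, against 23.0 and 9.37 CPM in the WT libraries. WT BCSP library 2 thus lay among the KO values, and the log2 fold change over both populations was -0.70 ± 0.23 (SE), which did not pass: the edgeR quasi-likelihood test gave an adjusted p of 0.608. Counts over the whole gene do not show whether one exon is missing, so they are a weak check of the labels. The cartilage markers Sox9, Col2a1, Acan and Matn3 together made up 261798 to 316391 CPM in KO and 259937 to 283748 CPM in WT libraries. The 4 Y-linked genes (Ddx3y, Eif2s3y, Uty and Kdm5d) summed to 92.6 to 156 CPM in KO and 35.7 to 73.3 CPM in WT libraries, without overlap. Xist, which is made from the inactive X chromosome, had 79.2 to 300.2 CPM in KO and 236 to 659 CPM in WT libraries. The genotypes and this difference in sex-linked transcripts cannot be told apart here.

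Over the 6 genes, 2 populations and 2 rounds, KO was below WT in all 24 single-library pairs, and below 50% of WT in all 24. The KO level ran from 5.34% to 49.8% of the WT level of the same population and round. In all 6 genes the 4 KO libraries lay below the 4 WT libraries. Of all genes tested, 2.02% showed such a separation downward and 9.25% were lower in KO in all 4 pairs. Since KO and WT values chose the 6 genes, nothing is read from these counts. Raw counts ran from 4 to 351 in KO and from 31 to 1073 in WT libraries. In bulk libraries, fewer cells that express a gene and less RNA per cell cannot be told apart.

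**Figure D1:**
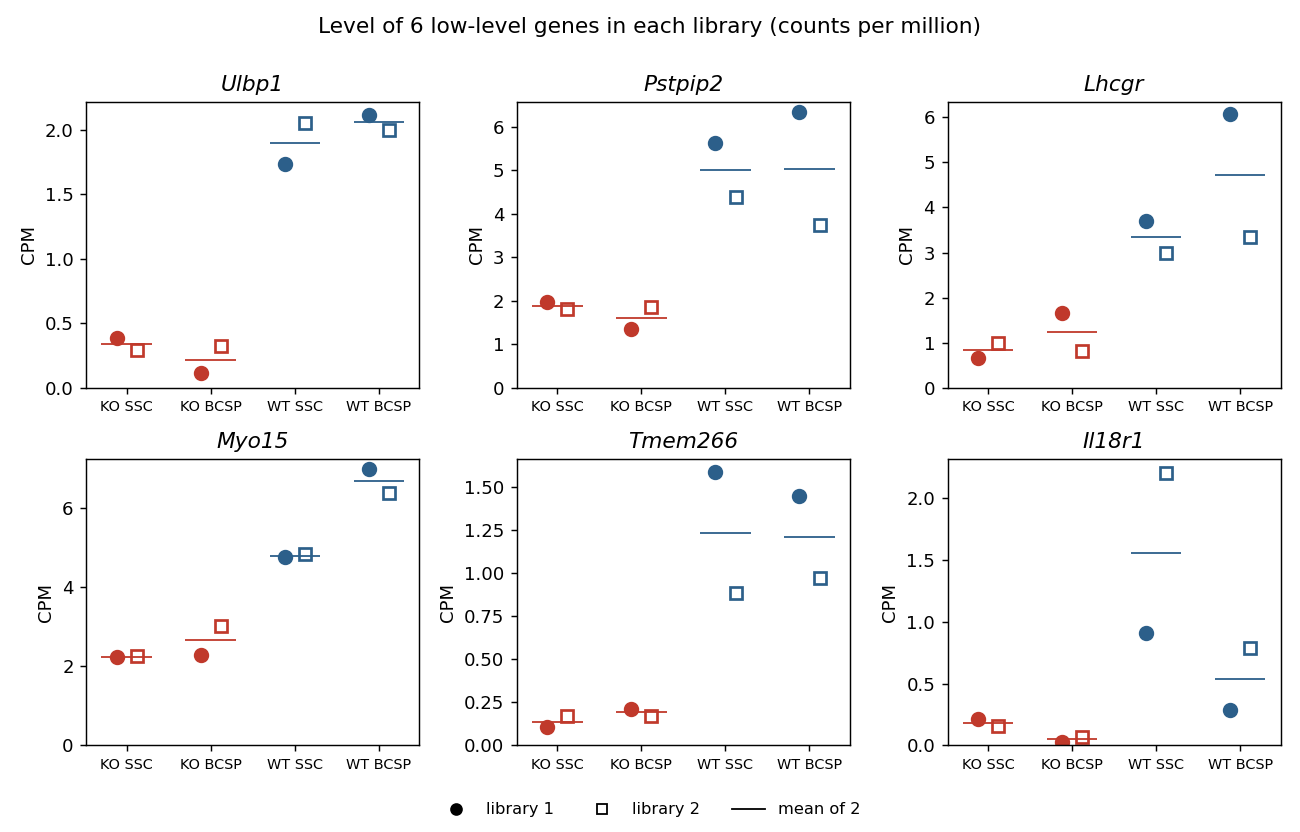
Level of the 6 genes in each library, in CPM on linear axes that start at 0 (filled circles, library 1; open squares, library 2; bars, mean of the 2 libraries; KO groups in red at the left, WT groups in blue at the right). In every panel the 4 KO libraries sit below the 4 WT libraries, with the widest gap for Ulbp1 and the narrowest for Il18r1 relative to the highest KO library.

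Among the immune genes, Ulbp1 had 0.382 and 0.294 CPM in KO SSC (40 and 38 counts), against 1.73 and 2.05 CPM in WT SSC (227 and 260 counts). In BCSP it had 0.113 and 0.319 CPM in KO (15 and 37 counts), against 2.12 and 2.0 CPM in WT (228 and 336 counts). The 4 WT libraries agreed closely with each other, within a factor of 1.22, and the lowest of them was 4.54 times the highest KO library. KO BCSP library 1 was the lowest of all, with an exact 95% Poisson interval of 8.40 to 24.7 around its 15 counts (counting error only). Relative to WT of the same population and round, Ulbp1 stood at 22.04% and 14.3% in SSC and at 5.34% and 15.9% in BCSP. On the log2 scale KO minus WT was -2.94 ± 0.41 (SE) over both populations, made up of -2.53 ± 0.58 for SSC and -3.35 ± 0.61 for BCSP.

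Il18r1 had 0.210 and 0.155 CPM in KO SSC (22 and 20 counts), against 0.908 and 2.21 CPM in WT SSC (119 and 280 counts). In BCSP it had 0.0301 and 0.0689 CPM in KO (4 and 8 counts), against 0.288 and 0.786 CPM in WT (31 and 132 counts). It was the most uneven of the 6: its highest and lowest WT libraries differed by a factor of 7.68, and WT BCSP library 1 exceeded KO SSC library 1 by a factor of only 1.37. The 4 counts of KO BCSP library 1 have an exact 95% Poisson interval of 1.09 to 10.2. Within a population the distance was wider, with KO at 23.1% and 7.01% of WT in SSC and at 10.5% and 8.77% in BCSP. The log2 fold change was -3.13 ± 0.84 in SSC, -3.59 ± 0.89 in BCSP and -3.34 ± 0.57 over both, the widest errors among the 6 genes.

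The hormone receptor gene Lhcgr had 0.659 and 0.999 CPM in KO SSC (69 and 129 counts), against 3.70 and 3.00 CPM in WT SSC (485 and 380 counts). In BCSP its values were 1.65 and 0.819 CPM in KO (219 and 95 counts), against 6.08 and 3.35 CPM in WT (655 and 563 counts). The highest KO and the highest WT library were both library 1 of BCSP. The KO level was 17.8% and 33.3% of WT in SSC and 27.1% and 24.4% in BCSP. Its log2 fold change was -1.93 ± 0.48 in BCSP and -1.99 ± 0.32 over both populations.

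Pstpip2, the myeloid adaptor gene (chr18:77789914-77882879, plus strand), had 1.97 and 1.81 CPM in KO SSC (206 and 234 counts), against 5.62 and 4.39 CPM in WT SSC (736 and 556 counts). In BCSP it had 1.34 and 1.86 CPM in KO (178 and 216 counts), against 6.33 and 3.74 CPM in WT (682 and 628 counts). The KO libraries were spread over a factor of 1.47 and the WT libraries over a factor of 1.69, with library 1 the higher in both WT populations. The ratio in BCSP depended on the round, at 21.2% of WT in round 1 and 49.8% in round 2, while SSC stood at 35.0% and 41.3%. Over both populations the log2 fold change was -1.57 ± 0.24. An antisense gene, F830208F22Rik, shares 206 bases (8.8%) of Pstpip2's exons, and the strand of counting is not stated. It reached at most 0.158 CPM in KO and 0.111 CPM in WT libraries.

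Myo15 had 2.22 and 2.25 CPM in KO SSC (233 and 291 counts), against 4.75 and 4.84 CPM in WT SSC (623 and 614 counts). In BCSP it had 2.29 and 3.02 CPM in KO (304 and 351 counts), against 6.999 and 6.39 CPM in WT (754 and 1073 counts). Libraries of a group were almost equal in SSC, and BCSP stood above SSC in both genotypes. KO was at 46.8% and 46.5% of WT in SSC and at 32.7% and 47.4% in BCSP, by the mean over libraries the mildest reduction of the 6 genes. Its log2 fold change over both populations, -1.28 ± 0.21, also had the smallest error.

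Tmem266 had 0.105 and 0.170 CPM in KO SSC (11 and 22 counts), against 1.59 and 0.884 CPM in WT SSC (208 and 112 counts). In BCSP it had 0.211 and 0.172 CPM in KO (28 and 20 counts), against 1.45 and 0.970 CPM in WT (156 and 163 counts). The 4 KO libraries lay between 11 and 28 counts, and the lowest WT library was 4.19 times the highest KO library. The KO level was 6.61% and 19.3% of WT in SSC and 14.6% and 17.8% in BCSP. The log2 fold change was -3.20 ± 0.69 in SSC, -2.68 ± 0.67 in BCSP and -2.94 ± 0.45 over both.

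**Figure D2:**
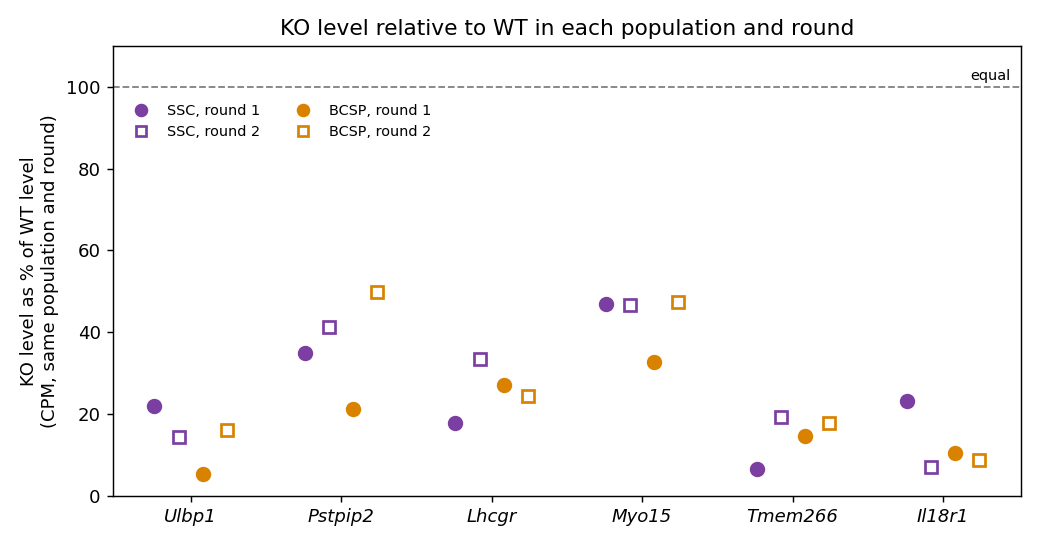
KO level as a percentage of the WT level in the same population and round, from CPM of single libraries (filled circles, round 1; open squares, round 2; purple, SSC; orange, BCSP; dashed line, equal levels). All 24 points lie under 50%, with Ulbp1, Tmem266 and Il18r1 under 24% and Myo15 between 32.7% and 47.4%.

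By the ratio of means over the 4 libraries of each genotype, the order from the largest to the smallest reduction was Il18r1 (KO at 11.1% of WT), Tmem266 (13.5%), Ulbp1 (14.0%), Lhcgr (25.6%), Pstpip2 (34.8%) and Myo15 (42.6%). The first 3 log2 fold changes differed by less than their standard errors, as did those of Pstpip2 and Myo15 from each other with both errors combined. The KO effect in BCSP minus the KO effect in SSC was smaller than its own standard error in 5 of the 6 genes on the log2 scale. The exception was Ulbp1, at -0.82 ± 0.79.

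Not all 6 genes were equally low. Per kilobase of exon, where levels can be compared between genes, Pstpip2 averaged 0.746 ± 0.118 CPM per kb in KO and 2.14 ± 0.50 in WT libraries (SD, n = 4 each). Its WT level stood at the 52.1 percentile of the tested protein-coding genes, so the word low fits it only in the KO libraries, at the 34.4 percentile. Lhcgr averaged 0.135 CPM per kb in KO and 0.528 in WT, and Myo15 averaged 0.192 in KO and 0.450 in WT. Ulbp1 averaged 0.0412 CPM per kb in KO and 0.294 in WT, Tmem266 0.0349 in KO and 0.259 in WT, and Il18r1 0.0241 in KO and 0.218 in WT. These 5 lay between the 5.26 and 21.2 percentiles in KO and between the 23.0 and 31.2 percentiles in WT. Neighbours in the WT order from Myo15 down to Il18r1 did not all differ beyond their spread: the WT SDs were 0.0879 for Myo15, 0.0251 for Ulbp1, 0.0737 for Tmem266 and 0.170 CPM per kb for Il18r1.

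The 2 populations and the 2 rounds offered comparisons other than the KO to WT contrast that chose the genes. The same libraries chose them, which may favour genes with little spread within a genotype. How many of the 6 were called here is thus not independent of the choice. BCSP minus SSC over both genotypes called 1 gene of 22153 (0.00451%) by the edgeR quasi-likelihood test, and none of the 6. That gene was Eng, which encodes the surface protein endoglin used to sort the populations. At an unadjusted p under 0.05 the test listed 822 genes (3.71%), Il18r1 alone of the 6 among them. DESeq2 called 37 genes (0.167%) and limma-voom 1, again without any of the 6. Il18r1 had the largest difference of the 6, at -1.56 ± 0.54 on the log2 scale (edgeR adjusted p = 1). It was lower in BCSP than in SSC in all 4 pairs, and both BCSP libraries lay below both SSC libraries within each genotype, as in 4.04% of all genes tested. Myo15 was higher in BCSP by 0.44 ± 0.21 on the log2 scale (edgeR adjusted p = 1) in all 4 pairs. For Myo15 both BCSP libraries were above both SSC libraries in each genotype, which 1.53% of genes showed. Lhcgr stood at 0.60 ± 0.31 (edgeR adjusted p = 1) and was higher in BCSP in 3 of 4 pairs. The values of Ulbp1 (-0.17 ± 0.38), Pstpip2 (-0.06 ± 0.23) and Tmem266 (0.27 ± 0.42) were within their standard errors. No difference of the 6 genes between the populations passed the adjusted threshold.

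Round 2 minus round 1 called 476 genes (2.15%) by the same test over all groups, and again none of the 6. An unadjusted p under 0.05 was reached by 2943 genes (13.3%) and by 0 of the 6. DESeq2 called 1103 genes (4.98%) and limma-voom 467 (2.11%), with 0 of the 6 in either. Il18r1 was the farthest from 0, at 0.92 ± 0.50 (edgeR adjusted p = 0.482), higher in round 2 in 3 of 4 groups. Lhcgr stood at -0.37 ± 0.28, Tmem266 at -0.29 ± 0.42, Ulbp1 at 0.28 ± 0.37, Pstpip2 at -0.16 ± 0.22 and Myo15 at 0.12 ± 0.19. Their edgeR adjusted p ran from 0.671 for Lhcgr to 0.872 for Myo15.

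**Figure D3:**
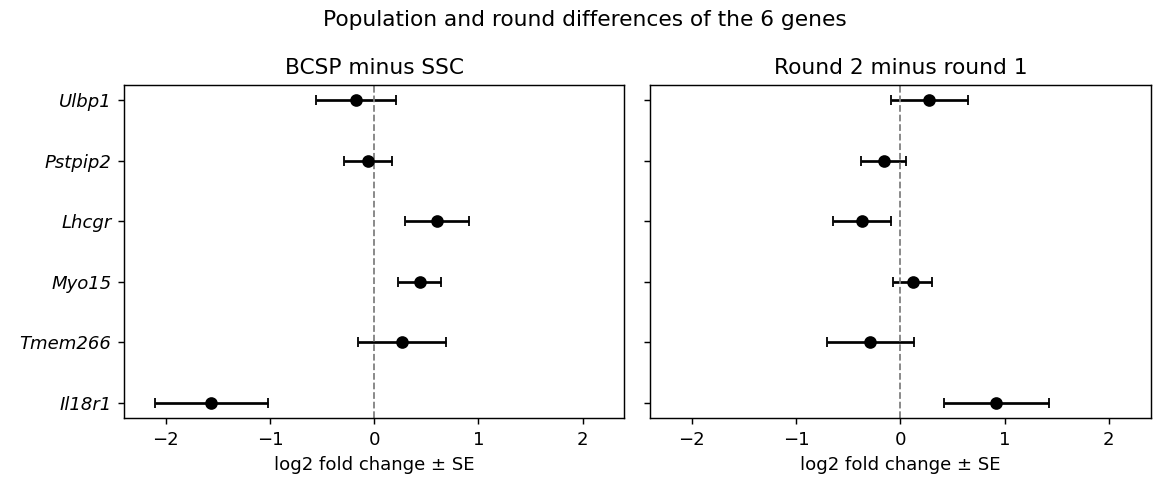
Log2 fold change of each gene between populations (left, BCSP minus SSC over both genotypes) and between rounds (right, round 2 minus round 1 over all groups), from edgeR with standard errors. Il18r1 stands farthest from 0 in both panels, and no value passed the adjusted threshold.

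Each gene was set beside the other genes of its system, from 6 lists drawn up with earlier results of these libraries known. They name 104 other genes, of which 100 were in the table, 83 were tested and 6 had 0 counts in every library. For KO minus WT over both populations, edgeR called 0 of the 83, DESeq2 0 and limma-voom 0, where edgeR called 0.0135%, DESeq2 0.429% and limma-voom 0.00451% of all genes tested. At an unadjusted p under 0.05, 6 of the 83 were listed, against 7.91% of all genes. All 6 were higher in KO. The direction of such genes over the whole table is not given here, so nothing is read from it. In SSC the 3 tools also called 0 of the 83, with 1 gene at an unadjusted edgeR p under 0.05 (1.2% of all genes). In BCSP they called 0 as well, with 7 such genes (6.19% of all genes). Of all genes, DESeq2 called 0.0406% in SSC and 0.0632% in BCSP. Across all tested genes the median log2 fold change was 0.02, with 10727 of 22153 below 0.

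Of the NKG2D list, 5 genes were tested, and their median log2 fold change was -0.49, all 5 being below 0. Raet1d, the most abundant of the other NKG2D ligands by CPM per kb, averaged 1.20 ± 0.36 CPM in KO and 1.64 ± 0.55 CPM in WT libraries (SD, n = 4 each), or -0.49 ± 0.30 on the log2 scale (edgeR adjusted p = 0.664). The ligands Raet1e (0.209 CPM in KO, 0.355 CPM in WT) and H60b (0.0813 CPM in KO, 0.152 CPM in WT) were scarcer. The receptor gene itself, Klrk1, had 4 counts in all, and its adaptor genes were at trace levels: Hcst averaged 0.0038 CPM in KO and 0.0741 CPM in WT, and Tyrobp 0.181 in KO and 0.395 in WT. Tyrobp fell in round 2 relative to round 1 (log2 fold change -4.69, edgeR adjusted p = 0.0318). Raet1a, Raet1b, Raet1c and H60a found no row by name.

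In the interleukin-18 and interleukin-1 family, 8 of 19 tested genes were below 0 and the median was 0.14. The partner chain Il18rap went the other way from Il18r1 without passing: it averaged 1.16 ± 0.53 CPM in KO and 0.580 ± 0.262 CPM in WT (log2 fold change 0.93 ± 0.47, edgeR adjusted p = 0.639). The ligand Il18 averaged 3.35 CPM in KO and 3.73 CPM in WT, and its soluble inhibitor Il18bp 2.93 CPM in KO and 2.77 CPM in WT. Il1rl1, the interleukin-33 receptor, averaged 3.79 ± 2.38 CPM in KO and 1.70 ± 0.86 CPM in WT (1.12 ± 0.46, edgeR adjusted p = 0.614). Il1r1, the main interleukin-1 receptor, averaged 29.1 CPM in KO and 19.2 CPM in WT (0.53 ± 0.26, edgeR adjusted p = 0.638), and was higher in round 2 (0.73, edgeR adjusted p = 0.0397). The shared adaptor Myd88 (38.4 CPM in KO, 37.3 CPM in WT) and the kinase Irak1 (34.2 CPM in KO, 34.4 CPM in WT) were nearly level. The ligand, its inhibitor, the adaptor and the kinase thus stood near their WT levels.

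For PSTPIP2, 8 of 22 tested partners and F-BAR proteins were below 0, with a median of 0.10. Its closest relative, Pstpip1, was the one listed gene whose 4 KO libraries all lay below the 4 WT libraries, by a small step: 7.21 CPM in KO and 8.37 CPM in WT (-0.27 ± 0.16 on the log2 scale). Of all genes tested, 2.02% showed this separation downward. In the other lists, Lgr5 and Myo9b had all 4 KO libraries above the 4 WT libraries. The share of all genes separated upward is not given here, so nothing is read from these cases. The partner kinase Csk averaged 40.8 CPM in KO and 46.8 CPM in WT (-0.26 ± 0.20), and the PEST-type phosphatase Ptpn12 25.5 CPM in KO and 20.1 CPM in WT (0.31 ± 0.16). Pacsin2, an abundant F-BAR protein, had 120.5 CPM in KO and 111.8 CPM in WT (0.06 ± 0.14). The GTPase-activating F-BAR genes Srgap1 (0.39 ± 0.16, edgeR adjusted p = 0.614) and Srgap3 (0.39 ± 0.18, edgeR adjusted p = 0.628) had the lowest p of this list, both higher in KO. Gas7 was higher in round 2 (0.70, edgeR adjusted p = 0.0366).

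The hormone receptor list had 9 tested genes, 3 below 0, with a median of 0.56. Little of the hormone system around Lhcgr was counted. Fshr, Lhb, Fshb, Hsd3b1 and Nr5a1 had 0 counts in every library, where 3 counts of 104782544 would be a level of 0.0286 CPM. The shared hormone subunit gene Cga had 4 counts in all, and Cyp11a1 and Cyp17a1 had 6 each. Star, the cholesterol carrier of steroid synthesis, averaged 1.51 CPM in KO and 1.25 CPM in WT (0.56 ± 0.46). The populations differed in direction for Star. In SSC it averaged 1.38 CPM in KO and 2.01 CPM in WT (-0.59 ± 0.45). In BCSP it averaged 1.64 CPM in KO and 0.478 CPM in WT (1.73 ± 0.47, edgeR adjusted p = 0.686). Gnas averaged 152 CPM in KO and 144 CPM in WT (0.01 ± 0.19). Of the related R-spondin receptors, Lgr4 had 92.9 CPM in KO and 94.1 CPM in WT, Lgr6 54.1 CPM in KO and 35.0 CPM in WT (0.57 ± 0.17, edgeR adjusted p = 0.596), and the sparse Lgr5 1.52 CPM in KO and 0.643 CPM in WT (1.20 ± 0.40, edgeR adjusted p = 0.608).

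Of 25 tested unconventional myosins and MYO15 partners, 7 were below 0, and the median was 0.19. The cargo whirlin, Whrn, averaged 6.79 CPM in KO and 6.92 CPM in WT (-0.07 ± 0.18), and its companions at the stereocilium tip were Eps8 (37.5 CPM in KO, 32.8 CPM in WT), Gpsm2 (75.9 CPM in KO, 81.6 CPM in WT) and Gnai3 (86.2 CPM in KO, 80.98 CPM in WT). Myo7a averaged 21.6 CPM in KO and 18.3 CPM in WT and was higher in round 2 (0.81, edgeR adjusted p = 0.0186), as was Myo18b (1.58, edgeR adjusted p = 0.005). Myo9b (139 CPM in KO, 108 CPM in WT) and Myo1e (66.6 CPM in KO, 52.8 CPM in WT) leaned higher in KO, at 0.32 ± 0.15 and 0.28 ± 0.13 on the log2 scale, without passing (edgeR adjusted p = 0.628 for both). Of the 3 tested voltage-sensor relatives of Tmem266, the proton channel Hvcn1 averaged 0.244 CPM in KO and 0.220 CPM in WT. The lysosomal channels Tpcn1 and Tpcn2 stood at -0.19 ± 0.14 and 0.06 ± 0.17 on the log2 scale.

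**Figure D4:**
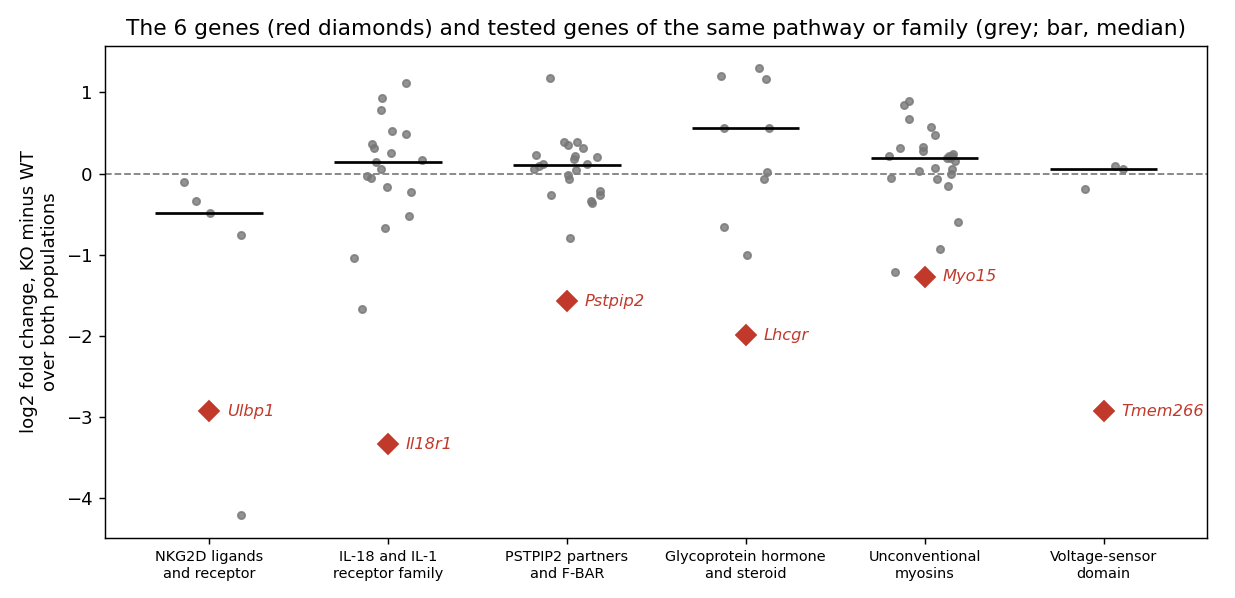
Log2 fold change, KO minus WT over both populations, of the 6 genes (red diamonds) and of the tested genes of the list each belongs to (grey points; bar, list median; dashed line, no difference). Only 1 grey point lies below the red diamond of its column, Hcst in the NKG2D list, which averaged 0.0038 CPM in KO and 0.0741 CPM in WT. The 6 genes were chosen on this contrast, so nothing is read from their low place.

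The genes next to the 6 on the chromosome were examined for KO minus WT over both populations, taking the nearest tested gene on each side (on 1 side only for Lhcgr). Of these 11 neighbours, edgeR called 0, 1 had an unadjusted p under 0.05 (Il1rl1), and 7 were below 0. Over all genes tested, edgeR called 0.0135%, 7.91% had such a p and 10727 of 22153 were below 0. The contrast was sharpest at Il18r1, which lies inside the interleukin-1 receptor cluster. Il1rl1 ends 137 bases before the start of Il18r1 and Il18rap starts 14508 bases after its end. Il1rl1 had 1.44 and 6.15 CPM in KO SSC, against 1.03 and 2.94 CPM in WT SSC, and 2.07 and 5.51 CPM in KO BCSP, against 1.60 and 1.24 CPM in WT BCSP. Il18rap had 0.849 and 1.45 CPM in KO SSC, against 0.275 and 0.915 CPM in WT SSC, and 0.595 and 1.74 CPM in KO BCSP, against 0.557 and 0.571 CPM in WT BCSP. For both neighbours each KO library was above the WT library of its population and round, while KO and WT ranges overlapped. Il18r1, chosen for its lower KO counts, was below WT in the same 4 pairs. The share of all genes higher in KO in all 4 pairs is not given here, so nothing is read from this contrast.

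Around the other genes, Ulbp1 has Cnksr3 (-0.01 ± 0.15) and Lrp11 (0.13 ± 0.49), and Pstpip2 has Atp5a1 (-0.32 ± 0.21), a subunit gene of mitochondrial ATP synthase, and Epg5 (0.29 ± 0.17). Myo15 starts 585 bases after the end of Drg2 (-0.21 ± 0.17) and is followed by Alkbh5 (-0.03 ± 0.14), which encodes an RNA demethylase. Tmem266 starts 69 bases from the start of Nrg4 (-0.37 ± 0.68), which is read from the opposite strand, and has Etfa (-0.27 ± 0.18) on its other side. Nrg4 averaged 0.278 ± 0.153 CPM in KO and 0.331 ± 0.093 CPM in WT libraries (SD, n = 4 each). Gtf2a1l lies 1329 bases from the end of Lhcgr and is the neighbour with the lowest value (-1.86 ± 1.19), but at 0.0878 CPM in KO and 0.315 CPM in WT its libraries overlapped. Within 500 kb of the 6 genes 75 other genes were tested: edgeR called 0, 38 were below 0, and 1, Isl2 near Tmem266, had its 4 KO libraries below its 4 WT libraries. Over all genes tested, edgeR called 0.0135%, 10727 of 22153 were below 0 and 2.02% were separated downward in this way.

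**Figure D5:**
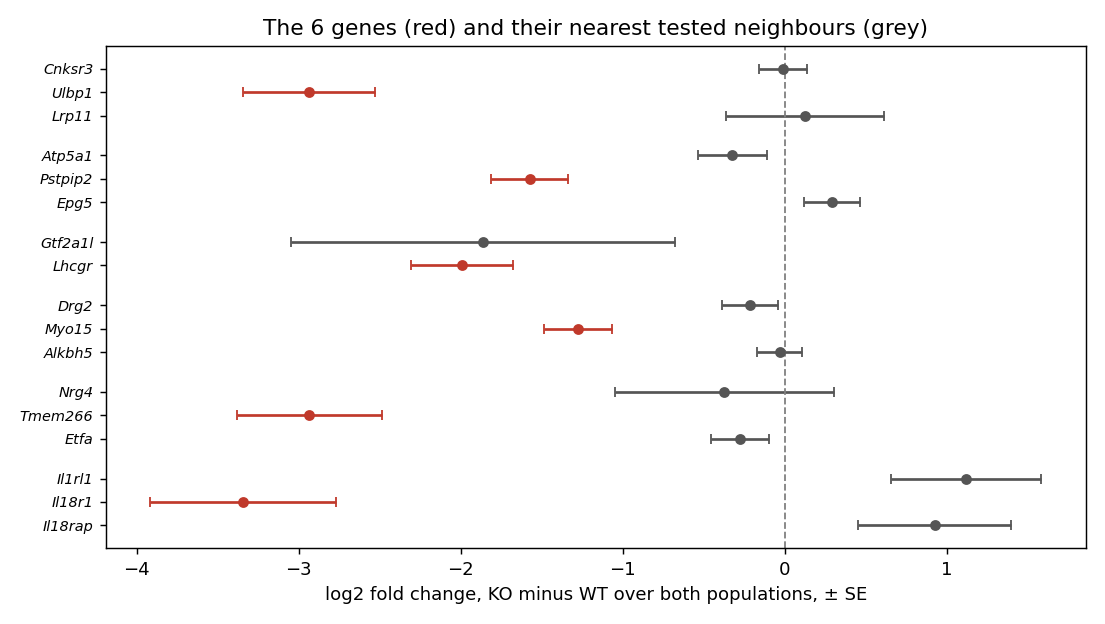
Log2 fold change with standard error, KO minus WT over both populations, for each of the 6 genes (red) beside its nearest tested neighbours in order of coordinate (grey; 1 neighbour for Lhcgr). The red points run from -3.34 to -1.28, and all grey points but Gtf2a1l lie between -0.37 and 1.12. The 6 genes were chosen on this contrast, so nothing is read from the distance between red and grey.

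Pstpip2, Il18r1 and the NKG2D system are best known from blood cells, so markers of such cells were summed beside them. The 10 lymphoid and NK markers summed to 0.108 to 9.24 CPM in KO and 0.280 to 43.6 CPM in WT libraries, with Klrb1c at 0 in every library. The 3 highest of these sums were nearly all Igkc, which had at most 0.016 CPM in the other 5 libraries. The 8 neutrophil markers summed to 1.502 to 47.6 CPM in KO and 0.142 to 182 CPM in WT, and the 7 macrophage and monocyte markers to 5.997 to 8.13 CPM in KO and 4.12 to 18.7 CPM in WT. The genotypes overlapped in all 3 sums. WT SSC library 1, with 182 CPM of neutrophil, 43.6 CPM of lymphoid and 18.7 CPM of macrophage markers, had 5.62 CPM of Pstpip2 and 0.908 CPM of Il18r1. WT SSC library 2, with 0.142, 0.308 and 5.37 CPM of the same markers, had 4.39 CPM of Pstpip2 and 2.21 CPM of Il18r1. The 7 osteoclast markers summed to 40.7 to 67.2 CPM in KO and 42.7 to 60.2 CPM in WT. Most of each osteoclast sum was Ctsk alone, at 36.8 to 60.4 CPM in KO and 39.8 to 55.5 CPM in WT libraries. Acp5 averaged 2.05 CPM in KO and 1.73 CPM in WT, and Mmp9 2.85 CPM in KO and 1.80 CPM in WT. The 6 mast cell and basophil markers summed to 0.391 to 2.32 CPM in KO and 0.206 to 0.647 CPM in WT, with Fcer1a at 0. The 6 erythroid markers summed to 2.52 to 14.7 CPM in KO and 3.11 to 36.9 CPM in WT.

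Markers of the tissues for which the other 3 genes are known were scarce. The 6 steroidogenic markers summed to 1.73 to 2.36 CPM in KO and 0.458 to 2.64 CPM in WT, mostly Star and Insl3, with Nr5a1 and Hsd3b1 at 0. The 5 neuron markers summed to 0.0345 to 0.640 CPM in KO and 0.0947 to 0.446 CPM in WT, with Gabra6 at 0. The 4 hair cell markers summed to 0.663 to 1.29 CPM in KO and 0.875 to 2.66 CPM in WT. edgeR called 0 marker genes of these lists for KO minus WT over both populations, in SSC or in BCSP. Of all genes tested it called 0.0135% over both, 0.00451% in SSC and 0.00451% in BCSP. The part of these cell types in the values of the 6 genes was not tested.

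For each of the 6, the 3 genes of at least 0.5 CPM with the most similar log2 CPM over the 8 libraries were listed by Pearson r. These are descriptions across libraries of 4 shared groups, picked as the highest of many, and carry no p. The 6 genes were chosen for lower KO counts, so genes that lean lower in KO tend to rank high here. Ulbp1 was most like Pigu (0.974), Slc43a3 (0.970) and Sfxn1 (0.968). Pstpip2 was most like Ufsp2 (0.985), Tbccd1 (0.973) and Chd1l (0.969). Lhcgr and Tmem266 were among each other's 3 nearest (0.963), and Tmem266 shared Chd1l (0.959) and Ufsp2 (0.958) with Pstpip2. Lhcgr was further like Pomt2 (0.965) and Acad11 (0.960). Myo15 was closest to Trf (0.981), the transferrin gene, at 3.10 CPM in KO and 24.2 CPM in WT, then to Ric3 (0.969) and Slc35g2 (0.958). Il18r1 was closest to Plekho2 (0.969), Nol6 (0.969) and H2-DMb2 (0.965). Pearson r does not measure the size of a difference. Chd1l averaged 6.80 CPM in KO and 8.04 CPM in WT, and Nol6 26.4 CPM in KO and 29.2 CPM in WT.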

How the data were processed

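Bulk RNA libraries of 2 populations and 2 genotypes (4 groups, 2 libraries each) were used. The deposited table holds whole-number counts per gene, made by the authors. STAR, featureCounts, DESeq2 and the build mm10 were used per the submitters' processing notes, with no versions. The table's name points to htseq, so the program that counted is not settled, and strand, annotation and filters are not given in the sources used here. Column names with SCC were read as SSC and BCP as BCSP, by the titles.

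Counts were scaled to CPM by column totals for the levels given. edgeR 4.0.16 (R 4.3.3, limma 3.58.1) fitted a robust quasi-likelihood model to all 8 libraries after filterByExpr (minimum count 10, minimum total 15) with TMM factors of 0.854 to 1.06. Models were additive in population and genotype, with round added for the round comparison, or had 1 mean per group for SSC and BCSP alone. The additive models treat SSC and BCSP libraries as independent, which the labels do not settle. P-values were adjusted by Benjamini-Hochberg over 22153 genes at 0.05. Standard errors came with each log2 fold change, and log2 CPM used a prior count of 2. The code was tested on simulated data.

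Exon lengths and positions are from GENCODE M21, and gene IDs were matched without their version (Myo15's version differs). Of the 50-base stretches of each gene's longest transcript, 7.08% of Pstpip2, 1.81% of Ulbp1, 0.39% of Il18r1, 0.23% of Tmem266 and none of Lhcgr and Myo15 also occur in transcripts of another gene, and such reads may be split or lost. Intervals cover counting error only.

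The 6 genes and all lists were chosen with earlier results of these data known. Named from the lists were genes called in any comparison, the 2 of highest CPM per kb, the 2 of lowest p for KO minus WT, partners with 0 counts, the nearest tested neighbours, and the 3 genes of most similar pattern. A single item that this rule names is not reported here. Il18rap, Il18, Il18bp, Klrk1, Pstpip1, Ptpn12, Cga, Cyp11a1, Cyp17a1, Star, Whrn, Eps8, Hvcn1, Eng and Isl2 were added after their values were seen. Alternatives were DESeq2 (1.42.0), limma-voom, DESeq2 size factors, no filter, a replicate block and leaving out each library.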

Additional observations from a re-analysis of the deposited data

How the results depend on the processing

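No KO minus WT value of the 6 genes changed sign under any alternative run, and no population or round value crossed the adjusted threshold. Since the 6 genes were chosen on KO minus WT, their sign there could hardly change, and nothing is read from it. Over both populations their log2 fold changes ran from -3.60 to -2.89 for Il18r1, -3.10 to -2.65 for Ulbp1, -3.08 to -2.69 for Tmem266, -2.28 to -1.81 for Lhcgr, -1.67 to -1.46 for Pstpip2 and -1.30 to -1.20 for Myo15. Within 1 population, single libraries moved values by over 1.5 times in 3 genes. In BCSP, Il18r1 stood at -2.45 without WT library 2, -4.21 without WT library 1 and -4.18 without KO library 2, Ulbp1 at -4.17 without KO library 2, and Lhcgr at -2.61 without KO library 1. In SSC, Il18r1 stood at -2.38 without WT library 2. The lowest adjusted p for Il18r1 between populations under any alternative was 0.273, over -2.47 to -1.30 on the log2 scale. BCSP minus SSC changed sign for Ulbp1 with limma-voom (0.07) and without KO BCSP library 1 (0.081), and for Pstpip2 without KO BCSP library 1 (0.011) and without WT BCSP library 2 (0.006), all within 1 SE of 0. With single libraries left out, that difference ran from -0.326 to 0.081 for Ulbp1 and from -0.179 to 0.011 for Pstpip2. The cause was not tested.

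Counts of genes called over the whole table moved much more. DESeq2 gave 37 for BCSP minus SSC, 1103 for the rounds, 95 for KO minus WT over both, 9 in SSC and 14 in BCSP, against 1, 476, 3, 1 and 1 by edgeR. Without the filter on low counts these were 66, 1062, 234, 4 and 38. limma-voom gave 1 for KO minus WT over both and 0 in SSC. Leaving out single libraries gave 150 to 3794 for the rounds (3794 without WT BCSP library 2), 1 to 3 for KO minus WT over both, 0 in SSC (0 to 0), 1 in BCSP and 1 between populations. Without both BCSP libraries of round 2, an alternative chosen after seeing the data, the counts were 10 between populations, 1 for KO minus WT over both and 0 in BCSP. With a replicate block for the rounds, the counts were 2 for BCSP minus SSC, 28 for KO minus WT over both, 2 in SSC and 3 in BCSP. Deviations of same-numbered libraries correlated at 0.0234 to 0.240 over the 6 pairs of groups and over 0.1 in 4 of them. The rule that all pairs exceed 0.1 was not met, so the rounds were not taken to pair the samples. With the block, 0 of the 83 list genes were called for KO minus WT over both, in SSC or in BCSP, and 13 over both had an unadjusted p under 0.05, against 6 without it. Of all 22153 genes tested, 2441 had such a p over both with the block and 1753 without it. Precision is limited by 2 libraries per group and, for Il18r1 in KO BCSP, by 4 and 8 counts.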

Other observations

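Across the whole table the lowest WT library was over 2 times the highest KO library in 32 genes (0.144% of those tested), a measure of the same contrast that chose the 6 genes and so a description only. Among them, 25 had counts in KO and 7 were at 0 in every KO library. Ulbp1 was at rank 3 and Tmem266 at rank 6 of the 25, and the other 4 genes were not among them. Spaca1, a gene of the sperm acrosome, led with a ratio of 7.87, at 0.103 CPM in KO and 3.44 CPM in WT. Gabrd, a GABA receptor subunit gene, followed with 4.55, at 0.0364 CPM in KO and 0.582 CPM in WT. Trf had a ratio of 4.40. Mrap, which encodes an accessory protein of the ACTH receptor, had 3.47, at 0.118 CPM in KO and 0.892 CPM in WT. Trf, at 24.2 CPM, had the highest WT level of the 32. Chosen after their values were seen, they are given as values alone.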
